A study of Sus scrofa with 22 samples.

Results

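PAX2, LHX1 and WT1 are transcription factors of the early urogenital system, and their transcripts were followed here through 14 libraries of pig fetal body tissue. The 3 genes were chosen by name with earlier results of these data in view, namely their levels in the abnormal fetuses, so every comparison that includes abnormal fetuses is given for them as a description without a test. Comparisons between normal clones and naturally fertilized fetuses, and between days within those groups, were tested. After transcript records had been assigned to genes, all 3 were found among 14389 genes with a record, and all 3 were among the 9911 genes kept for testing.

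The fetuses had been recovered at day 30 or day 35. At each day the series held 2 libraries of cloned fetuses titled abnormal, 3 libraries of cloned fetuses titled normal and 2 libraries of naturally fertilized fetuses, titled NF. The study's title concerns somatic cell nuclear transfer, in which the nucleus of a body cell is placed in an enucleated egg, and the groups not called NF are taken here as its clones. No deleted gene, transgene or drug is given for any fetus group. The labels call the sample body tissue, name no donor cell line, and do not say which part of the body was taken, what abnormal means, or whether fetuses were pooled. All fetus libraries are labelled male except NF replicate 2 at day 30, labelled female. The labels also do not say that replicates came from separate animals, so p-values measure the spread between these samples. The 8 embryo libraries of the series were not used here.

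PAX2 is a paired-box factor of the nephric duct, the ureteric bud and the mesenchyme that condenses around it, and it is also made in the midbrain-hindbrain boundary, the ear and spinal interneurons. LHX1, a LIM-homeodomain factor, acts in the nephric duct and later in the renal vesicle, the first epithelium of each nephron, and is made in spinal and hindbrain neurons too. WT1 is a zinc-finger factor of the nephron progenitors and later of podocytes, the cells that wrap the glomerular capillaries. It is also a marker of the gonadal ridge and of mesothelium, the lining of the body cavities and the heart. In libraries from body tissue the name kidney primordium therefore describes a known site of these genes and not the measured cells. The tables hold a sum over all cells, and fewer cells of a type and less RNA per cell cannot be told apart.

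In the RefSeq annotation of the pig build Sscrofa11.1, PAX2 (gene 100515585) lies on chromosome 14 from 111822334 to 111914950. LHX1 (gene 100513681) lies on chromosome 12 from 38450708 to 38457583. WT1 (gene 397338) lies on chromosome 2 from 28411467 to 28456007, and its first 146 bases are shared with a long non-coding RNA, LOC102161978, that runs from 28358562 to 28411612. The sources used here do not say whether reads were assigned by strand, so reads from those shared bases cannot be told apart. No record of LOC102161978 was matched. The tables held 5 records of PAX2, of which 4 had counts, 1 record of LHX1, and 2 records of WT1, of which 1 had counts.

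Total expected counts ran from 588882 to 11535824 per library. Day 35 abnormal replicate 2 was the shallowest, and the next held 3463757. The rank correlation of that library with the other day 35 abnormal library was 0.816, the lowest within any group, where the highest was 0.988. Over all genes it stood closer to the 4 NF libraries (0.898 to 0.914) than to any clone library (0.812 to 0.849). Whether the labels of these libraries are right was not tested, and each day 35 abnormal value rests on them. EIF1AY, a Y-linked translation factor gene, had 0 counts in both day 35 abnormal libraries and in day 30 NF replicate 1, all labelled male. It had 220 counts in day 30 NF replicate 2, labelled female. Every comparison that includes day 35 abnormal fetuses, also that with day 30 abnormal fetuses, thus sets libraries without EIF1AY counts against libraries with them. Comparisons with day 30 NF include replicate 1 without counts, where all other libraries compared had counts. The part of this in the results was not tested.

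PAX2 transcripts were readily counted in normal clones and nearly absent from NF fetuses. Levels are given as CPM (counts per 1000000 counts, scaled for library composition). Among day 30 normal clones PAX2 stood at 16.4, 14.9 and 22.5 CPM, and in the day 35 normal clones it stood at 69.9, 56.9 and 51.8 CPM. The NF libraries had 0.955 and 1.07 CPM at day 30 and 0.513 and 2.27 CPM at day 35, from 3 to 13 counts each. Every normal clone was thus above every NF library, and the normal clones of day 35 were above those of day 30. Day 30 abnormal fetuses had 6.55 and 20.95 CPM, one below and one within the range of the normal clones of that day. PAX2 had 0 counts in both day 35 abnormal libraries, where 3 counts, the limit that a count of 0 allows, correspond to 1.15 CPM in replicate 1 and 8.09 CPM in the shallow replicate 2. Intervals and limits of this kind cover counting error only.

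LHX1 had a similar order of groups, with a wider gap to the NF fetuses. Normal clones had 26.5, 26.3 and 34.1 CPM at day 30 and 57.0, 57.1 and 50.7 CPM at day 35. In the NF libraries LHX1 had 0 counts at day 30, with limits of 0.409 and 0.457 CPM, and 2 and 1 counts at day 35, or 0.342 and 0.175 CPM. Abnormal fetuses had 15.7 and 10.3 CPM at day 30, below each normal clone of that day and above each NF library. At day 35 the abnormal libraries had 5.37 CPM in replicate 1, from 14 counts, and 0 counts in replicate 2, where the limit was 8.09 CPM.

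WT1 had a different order, with its highest levels in abnormal fetuses. Day 30 abnormal fetuses had 62.5 and 101.8 CPM, against 8.68, 7.76 and 7.75 CPM in normal clones and 3.55 and 8.23 CPM in NF fetuses of that day. No other library reached the level of either day 30 abnormal library. At day 35 the abnormal libraries had 36.45 and 10.8 CPM. The second of these came from 4 counts, for which the exact 95% Poisson interval was 2.94 to 27.6 CPM. Normal clones of day 35 had 12.3, 17.4 and 6.62 CPM, and NF fetuses had 9.58 and 1.05 CPM. The abnormal and normal libraries of day 35 overlapped, as did the normal and NF libraries at both days.

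**Figure D1:**
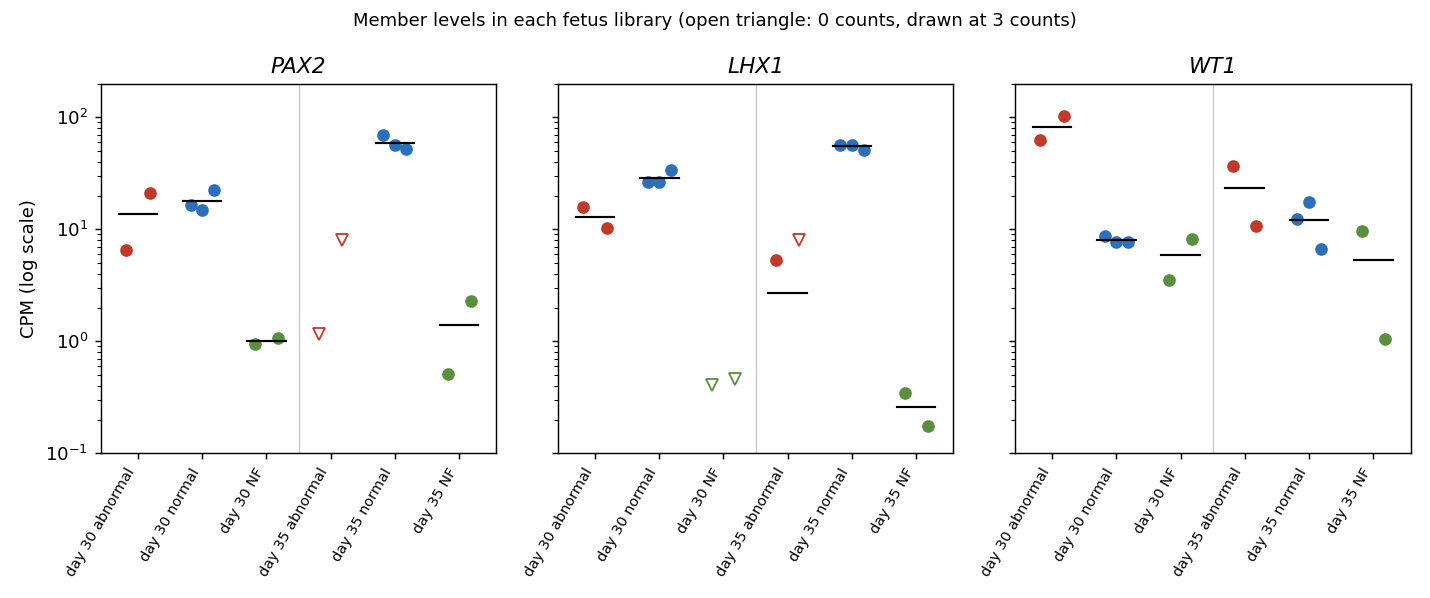
CPM of PAX2, LHX1 and WT1 in each of the 14 fetus libraries (log axis), by group; points are libraries, bars are group means (none is drawn where both libraries had 0 counts), and open triangles are libraries with 0 counts, drawn at the CPM of 3 counts. PAX2 and LHX1 peak in day 35 normal clones (means 59.5 and 54.9 CPM), and WT1 peaks in day 30 abnormal fetuses (mean 82.1 CPM).

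Ordered by group mean, PAX2 ran from day 35 normal clones (59.5 ± 9.35 CPM, SD, n = 3) through day 30 normal clones (17.9 ± 4.02, n = 3) and day 30 abnormal fetuses (13.75 ± 10.2, n = 2) to the NF fetuses of day 35 (1.39 ± 1.24, n = 2) and of day 30 (1.01 ± 0.0792, n = 2), with day 35 abnormal fetuses at 0 counts. Neighbouring groups overlapped between day 30 normal and abnormal fetuses and between the NF groups. Day 30 NF and day 35 abnormal fetuses were not separated either, since the limits of the latter (1.15 and 8.09 CPM) exceed both NF values. For LHX1 the order was day 35 normal clones (54.9 ± 3.66 CPM), day 30 normal clones (29.0 ± 4.45), day 30 abnormal fetuses (13 ± 3.86), day 35 abnormal fetuses (2.69 ± 3.80), day 35 NF (0.258 ± 0.118) and day 30 NF at 0 counts. The abnormal and NF groups of day 35 overlapped as neighbours in that order, and the NF groups were not separated, since the limits at day 30 (0.409 and 0.457 CPM) exceed both day 35 values. For WT1 the order was day 30 abnormal (82.1 ± 27.8 CPM), day 35 abnormal (23.6 ± 18.1), day 35 normal (12.1 ± 5.38), day 30 normal (8.065 ± 0.535), day 30 NF (5.89 ± 3.31) and day 35 NF (5.31 ± 6.03). Below day 30 abnormal fetuses, each neighbouring pair in the WT1 order overlapped.

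Levels of different genes were compared in TPM, transcripts per 1000000 transcripts, which allows for transcript length. In day 30 normal clones LHX1 had the highest mean of the 3 genes at 12.0 ± 1.75 TPM, PAX2 had 8.65 ± 1.76 TPM and WT1 had 3.24 ± 0.336 TPM (SD, n = 3). At day 35 the normal clones had 26.45 ± 3.46 TPM of PAX2, 21.0 ± 1.46 TPM of LHX1 and 4.50 ± 2.07 TPM of WT1. WT1 led in day 30 abnormal fetuses, at 26.7 ± 8.15 TPM against 5.055 ± 3.84 TPM of PAX2 and 4.41 ± 1.46 TPM of LHX1 (n = 2). These are middle to low levels among the tested genes. PAX2 exceeded 65.0% of tested genes in day 35 normal clones and 7.54% in day 30 NF fetuses, by mean TPM, and WT1 exceeded 68.9% in day 30 abnormal fetuses.

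PAX2 counts were spread over several transcript records, named here by their length. RSEM, the program that made the tables, divides reads among overlapping transcripts by estimation, so the split is itself an estimate. A 2723-base record held 51.0% to 66.2% of PAX2 counts in day 30 normal clones and 67.8% to 78.7% in day 35 normal clones. A 2794-base record held 19.4% to 33.5% at day 30 and 9.60% to 17.8% at day 35, and a 1493-base record held 11.9% to 15.5% and then 11.8% to 14.5%. The ranges of the longer pair of records did not overlap between the days, while those of the 1493-base record did. In day 30 abnormal fetuses the 2723-base record held 91.0% and 100% of counts, and the 2794-base record had none in either library. Few counts lie behind those shares, 15 in replicate 1 and 49 in replicate 2. All WT1 counts fell on a 2887-base record and none on a 2083-base one.

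**Figure D2:**
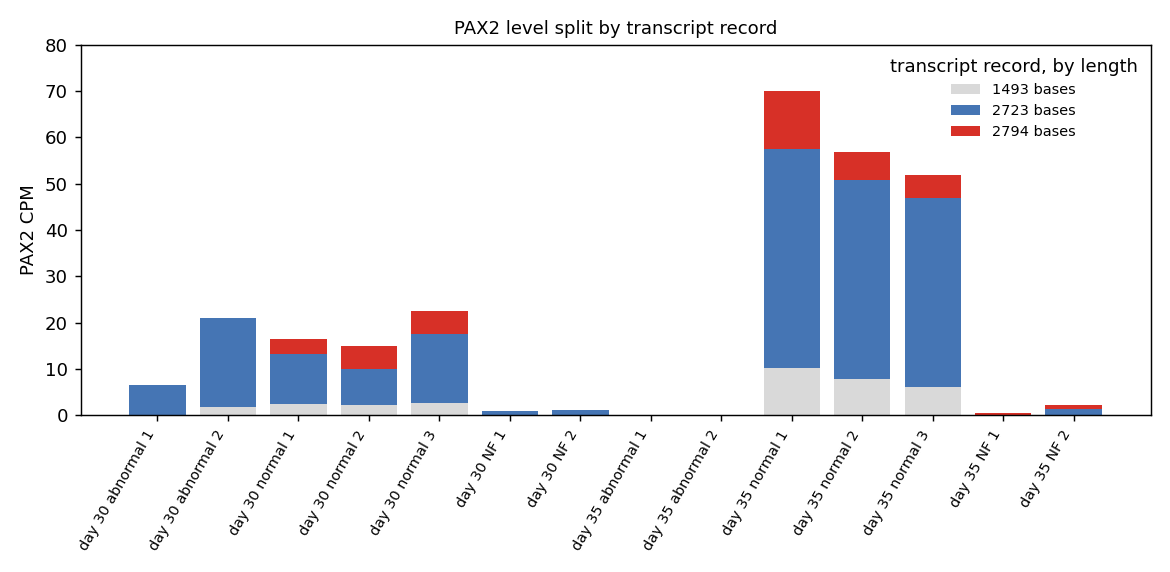
PAX2 CPM in each library (bar height), divided by transcript record, each named by its length in bases. The 2723-base record makes up most of every bar among the normal clones, and both day 35 abnormal libraries have no bar because PAX2 had 0 counts there.

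Normal clones and NF fetuses of the same day were compared to ask how clones titled normal differ from fertilized fetuses, and PAX2 and LHX1 were higher in the clones at both days. At day 30 PAX2 was higher by 4.12 ± 0.62 on the log2 scale (SE; edgeR quasi-likelihood F-test, Benjamini-Hochberg adjusted p = 0.00144), in 3 of 3 normal clones. LHX1 had 468 counts over the normal clones and 0 over the NF fetuses, which puts it at least 134-fold higher against a limit of 3 counts over the NF group (adjusted p = 7.24e-05, same test). WT1 differed by 0.46 ± 0.72, and the difference did not pass (adjusted p = 0.67). Among all 9911 genes 29.3% passed in this comparison, 14% of them higher and 15.3% lower as shares of the genes tested, so that 2 of 3 members stand beside a high background. Non-overlap of the libraries in the higher direction, which PAX2 and LHX1 had, was met by 33.2% of genes at this day and by 37.7% at day 35.

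At day 35 PAX2 was higher in normal clones by 5.4 ± 0.64 (log2 ± SE; edgeR quasi-likelihood F-test, adjusted p = 0.00024). LHX1 had 850 counts in the normal clones and 3 in the NF fetuses, a ratio of 213 scaled for depth, with a 95% counting interval of 72.6 to 1035 (adjusted p = 5.34e-05, same test). The WT1 difference was 1.18 ± 0.73 and did not pass (adjusted p = 0.211). For WT1 the call rested on an NF library: without day 35 NF replicate 1, which had 9.58 CPM, the difference was 3.50 with an adjusted p of 0.0176, and without replicate 2, which had 1.05 CPM, it was 0.34 with an adjusted p of 0.741. At this day 42.3% of genes passed, 22.1% of the tested genes higher and 20.1% lower. The calls of PAX2 and LHX1 at both days held on leaving out each of the 14 libraries in turn.

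**Figure D3:**
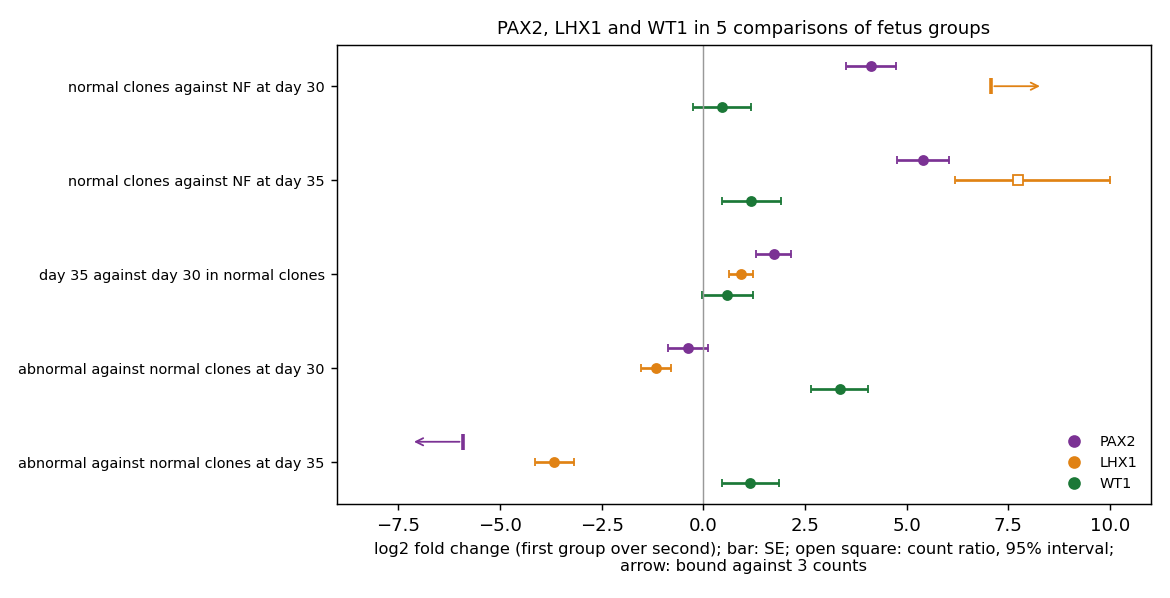
Log2 fold changes of PAX2, LHX1 and WT1 in 5 comparisons, first group over second. Filled points are fitted values with SE, the open square is a ratio of counts with its 95% interval, and arrows start at bounds for a group with 0 counts; in normal clones against NF PAX2 and LHX1 lie well to the right at both days, while WT1 lies at 0.46 and 1.18.

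Other genes of kidney development were read from lists that group them by role and were likewise drawn up with earlier results known. Of 20 genes of the nephron progenitors and kidney stroma 12 had a record and 11 were tested; for the ureteric bud and nephric duct the numbers were 20, 14 and 12, and for the early nephron, tubule and podocyte 22, 13 and 11. Several defining genes were left without a match and without values here, among them EYA1, OSR1, PAX8, RET, FOXD1, NPHS1, LRP2 and UMOD. MEOX2 had 0 counts in every fetus library. The tubule amino acid transporter gene SLC3A1 had a mean of 0.056 CPM in day 35 normal clones and 0 counts in each of the other groups.

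At day 30, 6 of 11 nephron progenitor genes were higher in normal clones than in NF fetuses and 1 was lower, with a median log2 difference of 0.90 against 0.0 over all genes. Of all genes tested 14% were higher and 15.3% lower at this day. SALL1, a zinc-finger factor of the progenitors, had 113 ± 12.9 CPM in normal clones and 12.5 ± 10.3 CPM in NF fetuses (log2 difference 3.16 ± 0.61, edgeR adjusted p = 0.00382). MEOX1, a homeobox factor, had 68.9 ± 2.05 CPM in normal clones (2.78 ± 0.48, edgeR adjusted p = 0.00223). The lower gene was CITED2, a transcriptional coactivator binding protein, named at both days after its values were seen, with 79.3 ± 5.68 against 202 ± 40.4 CPM. Without day 30 NF replicate 2 the number called fell to 4. In the duct list 2 of 12 genes were higher and 0 lower (median 0.90), a share near that over all genes and a count that ran from 0 to 6 on leaving out each library. The early nephron list had 4 of 11 higher and 1 lower (median 0.75), and between 2 and 5 called on leaving out each library. PODXL, the podocyte surface sialomucin also found on mesothelium and vessels, had 69.5 ± 11.2 against 19.5 ± 6.31 CPM (1.83 ± 0.37, edgeR adjusted p = 0.00483). PTPRO, a receptor phosphatase of podocytes and of neurons, had 7.86 ± 1.61 CPM in normal clones and 0 counts in both NF libraries (edgeR adjusted p = 0.00655).

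At day 35 the nephron progenitor list had 5 of 11 genes higher and 1 lower in normal clones, with a median of 0.68 against 0.06 over all genes. Of all genes tested 22.1% were higher and 20.1% lower at this day. SALL1 had 81.7 ± 5.81 against 3.17 ± 3.25 CPM (4.67 ± 0.70, edgeR adjusted p = 0.000604), and HOXA11, a posterior homeobox gene of the metanephric mesenchyme and the limb, had 58.4 ± 18.3 against 3.52 ± 3.0 CPM (4.04 ± 0.74, edgeR adjusted p = 0.00168). MEOX1 was higher again (2.24 ± 0.47, edgeR adjusted p = 0.00361), and CITED2 was again the lower gene, at 103 ± 15.4 against 283 ± 128 CPM. In the duct list 4 of 12 were higher and 1 lower (median 0.90). UPK3A, a uroplakin of urothelium, had 17.3 ± 8.25 against 0.175 ± 0.247 CPM (edgeR adjusted p = 0.00102). TFAP2B, an AP-2 factor of the distal nephron and of the neural crest, had 47.9 ± 5.96 against 3.20 ± 0.0740 CPM (3.89 ± 0.81, edgeR adjusted p = 0.00342). The early nephron list had 3 of 11 higher and 1 lower (median 0.87), and PTPRO had 18.1 ± 5.95 CPM against 0 counts in both NF libraries. Without day 35 NF replicate 2 the duct list had 2 genes called and the early nephron list had 1.

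PAX2 and LHX1 are also factors of neurons, and several neural genes, inhibitory and excitatory, were higher with them in normal clones than in NF fetuses. A list of 16 genes of the midbrain-hindbrain boundary, spinal interneurons and ear had 14 with a record and 13 tested. At day 30, 7 of 13 were higher in normal clones and 0 lower, beside 14% higher and 15.3% lower over all genes. The median log2 difference was 1.82, against 0.0 over all genes. It was 4.06 with genes at 0 counts in a group set to their bound, or left out where neither group exceeded 3 counts. PAX5 and OTX2 were left out in this way at day 30, so the medians do not cover the same genes. SLC32A1, the vesicular transporter of GABA and glycine, had 11.5 ± 3.61 against 0.144 ± 0.0113 CPM (edgeR adjusted p = 0.000186). LHX5, a LIM-homeodomain factor related to LHX1, had 11.6 ± 1.02 against 0.144 ± 0.0113 CPM (edgeR adjusted p = 0.00163), and TLX3, a factor of spinal sensory interneurons, had 6.30 ± 0.681 against 0.273 ± 0.386 CPM (edgeR adjusted p = 0.0037). At day 35, 7 of 13 were higher and 1 lower, beside 22.1% higher and 20.1% lower over all genes. The median was 1.41, or 3.06 with bounds and with PAX5 left out by the same rule, against 0.06 over all genes. SLC32A1 then had 39.5 ± 9.97 against 0.173 ± 0.00261 CPM (edgeR adjusted p = 5.35e-05). LHX5 and GAD2, a GABA-synthesizing enzyme, had 20.2 ± 2.91 and 6.71 ± 1.98 CPM in normal clones and 0 counts in both NF libraries, and TLX3 had 34.0 ± 12.1 against 0.0855 ± 0.121 CPM. The lower gene was EN1, a homeobox factor of the midbrain-hindbrain boundary and of other tissues, named after its values were seen, at 20.8 ± 5.76 against 42.4 ± 20.3 CPM (edgeR adjusted p = 0.0445); at day 30 it had 17.2 ± 0.834 against 34.1 ± 5.07 CPM and did not pass (edgeR adjusted p = 0.0689). The summed level of the 14 genes was 75.8 to 87.5 TPM in day 30 normal clones against 31.2 to 41.4 TPM in NF fetuses. At day 35 it was 148 to 185 TPM against 37.6 to 56.5 TPM. The part of these cells in the levels of PAX2 and LHX1 was not tested.

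Markers of the gonad, adrenal and mesothelium, sites of WT1, were read in the same comparisons. Of 15 gonad and adrenal genes 14 had a record and 8 were tested, of which 1 was higher and 0 lower at day 30, and 3 were higher and 1 lower at day 35. Of 12 mesothelial and epicardial genes 7 had a record and 6 were tested, with 1 higher and 1 lower at day 30 and 2 higher and 1 lower at day 35. Over all genes tested the shares were 14% higher and 15.3% lower at day 30, and 22.1% higher and 20.1% lower at day 35. At day 35 the mesothelial calls fell to 0 without NF replicate 2 and to 1 without NF replicate 1. The gonad and adrenal calls fell to 1 without normal replicate 1, normal replicate 3 or NF replicate 2 of that day, and to 2 without NF replicate 1. BNC1, a zinc-finger gene of mesothelium and other epithelia, had 26.7 ± 1.32 CPM in day 30 normal clones and 9.94 ± 3.63 CPM in NF fetuses (1.43 ± 0.30, edgeR adjusted p = 0.00581). NR5A1, the steroidogenic factor of gonad and adrenal, and INSL3, a Leydig cell hormone, had 0 counts in every fetus library.

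The normal clones of day 35 and day 30 were compared to ask what changed over these 5 days of growth. PAX2 rose by 1.73 ± 0.43 (log2 ± SE; edgeR quasi-likelihood F-test, adjusted p = 0.0343), with 3 of 3 libraries of day 35 above each library of day 30. The call did not survive the loss of a library: without each of the 6 normal clone libraries in turn the change was 1.60 to 1.93 and the adjusted p was 0.0675 to 0.157. LHX1 differed by 0.92 ± 0.30 with no overlap between the days, and this did not pass (adjusted p = 0.086). It did pass without either day 35 abnormal library, with a change of 0.86 in each case. Those libraries are in neither group compared here, but they enter the filter, the scaling and the estimate of spread. WT1 differed by 0.59 ± 0.63 (adjusted p = 0.596). In all, 9.19% of genes passed, 5.35% of the tested genes higher and 3.84% lower, and 29.3% had no overlap in the higher direction. Limma on TPM split its calls into 335 higher and 363 lower, against 530 and 381 by edgeR. The count by edgeR ran from 1 without day 30 normal replicate 2 to 2533 without day 35 abnormal replicate 1.

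Few other kidney genes passed the test between the days. None of 11 early nephron genes passed, 1 of 11 nephron progenitor genes was lower (FOXC1), and 1 of 12 duct genes was higher (UPK3A). The medians were 0.36, -0.31 and 0.05 in that order, against 0.07 over all genes. Without day 30 normal replicate 1 these lists had 0 calls, and without day 35 abnormal replicate 1 the early nephron list had 3 and the nephron progenitor list 2. In the neural and ear list 3 of 13 were higher and 0 lower, with a median of 1.24. It was 1.15 with bounds, under the same rule for genes of 3 counts or fewer. TLX3 rose by 2.43 ± 0.54 (edgeR adjusted p = 0.0217), GAD1, a GABA-synthesizing enzyme, by 2.0 ± 0.37 (edgeR adjusted p = 0.0134) and SLC32A1 by 1.78 ± 0.35 (edgeR adjusted p = 0.0147). Each of these 3 calls was lost without day 30 normal replicate 1, without day 30 normal replicate 2 or without day 35 normal replicate 1, and that of TLX3 also without day 30 normal replicate 3, with adjusted p up to 0.114. That of GAD1 was also lost with versioned records (2.63, edgeR adjusted p = 0.122).

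In NF fetuses none of the 3 genes passed the test between the days. PAX2 differed by 0.45 ± 0.74 and WT1 by -0.14 ± 0.79, both with an edgeR adjusted p of 1.0. LHX1 stood at 0 counts at day 30 and 3 counts over the group at day 35, too few for a fold. No gene passed in this comparison (0.0% by edgeR), while 351 genes (3.54%) had an unadjusted p under 0.05, DESeq2 called 11 and limma on TPM called 1. The day change in normal clones minus the day change in NF fetuses was 1.28 ± 0.87 for PAX2 (edgeR adjusted p = 0.551) and 0.73 ± 1.01 for WT1 (edgeR adjusted p = 0.795). That of LHX1 did not pass (edgeR adjusted p = 0.43) and is given no size, since 1 of its groups had 0 counts. Only 0.0202% of genes passed this test of the difference, 2 genes in all, while 14.3% had an unadjusted p under 0.05. A difference in the day change of PAX2 between normal clones and NF fetuses was thus not shown.

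**Figure D4:**
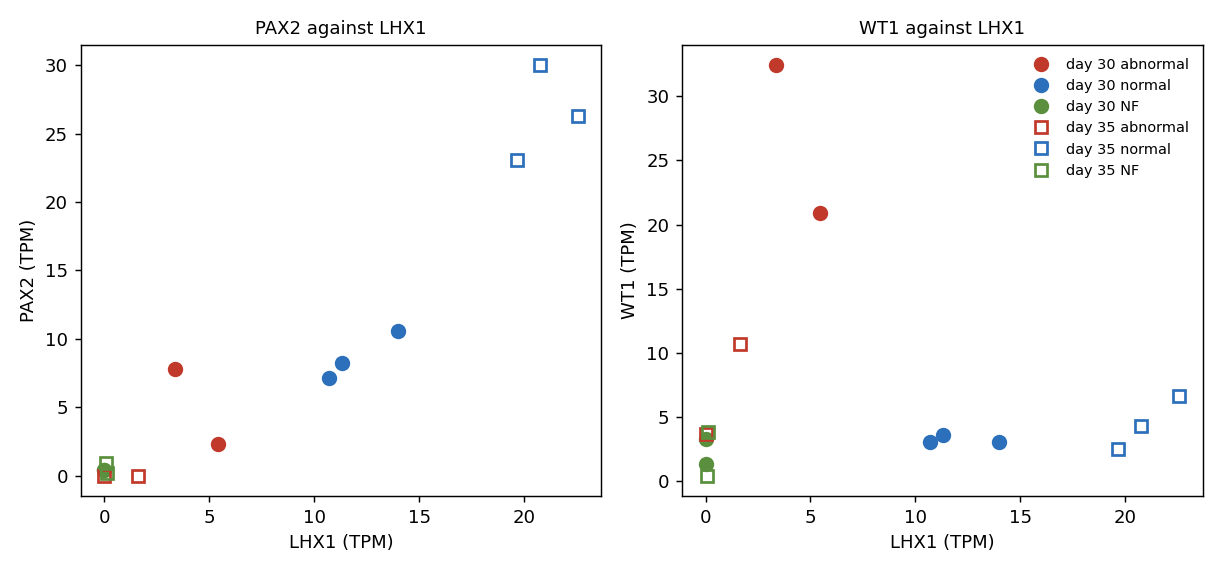
TPM of PAX2 (left) and of WT1 (right) against TPM of LHX1, 1 point per library; filled circles are day 30, open squares day 35. PAX2 rises with LHX1 up to the 3 day 35 normal clones, while the libraries with most WT1, the 2 day 30 abnormal ones, have 3.38 and 5.44 TPM of LHX1.

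Abnormal and normal clones of the same day were also set side by side, as groups that differ in their titled state. At day 35 they differ in EIF1AY counts too, which were 0 in both abnormal libraries and 104 to 185 in the normal clones. The values of PAX2, LHX1 and WT1 in these comparisons are a description, since the genes were chosen with such results known. At day 30 PAX2 differed by -0.38 ± 0.50 (log2, abnormal over normal, ± SE), with overlapping libraries, and it turned to 0.23 without day 30 abnormal replicate 1. LHX1 differed by -1.16 ± 0.37, with both abnormal libraries below every normal clone. WT1 differed by 3.35 ± 0.69, with both abnormal libraries above every normal clone. Among all genes 15.4% passed in this comparison, 8.93% of the tested genes higher and 6.46% lower, and the share with no overlap of libraries was 30.9% in the higher and 33.3% in the lower direction. Limma on TPM turned the split of calls, with 542 higher and 1412 lower against 885 and 640 by edgeR, and moved the median of all genes to -0.27.

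At day 35 PAX2 had 0 counts in abnormal fetuses and 931 in normal clones, at least 60.02-fold lower against 3 counts over the abnormal group. LHX1 differed by -3.67 ± 0.48, a value that rests on the 14 counts of abnormal replicate 1; replicate 2 had none. WT1 differed by 1.16 ± 0.71, and by -0.19 without abnormal replicate 1. Here 23.2% of genes passed, 10.9% of the tested genes higher and 12.3% lower, and 17.1% had no overlap in the higher and 25.9% in the lower direction. Limma on TPM called 497 higher and 2382 lower, against 1085 and 1215 by edgeR, with a median of -0.32.

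The kidney lists, which these genes are not part of, were read in the same comparisons. The lists too were drawn up with earlier results of these data known, so their calls are not independent evidence of a direction. At day 30, 4 of 11 nephron progenitor genes were lower in abnormal than in normal clones and 1 was higher, with a median of -0.83 against -0.02 over all genes. Of all genes tested 6.46% were lower and 8.93% higher in this comparison. SIX2, a homeobox factor that keeps nephron progenitors undifferentiated and is also made in craniofacial and tendon mesenchyme, had 14.7 ± 2.67 CPM in abnormal fetuses and 142 ± 14.9 CPM in normal clones (-3.27 ± 0.35, edgeR adjusted p = 0.000422). The number called in this list fell to 2 without day 30 abnormal replicate 2. In the duct list 1 of 12 was higher and 0 lower (median -0.62). The early nephron list had 2 of 11 higher and 0 lower, with a median of 1.10. PODXL had 350 ± 43.0 against 69.5 ± 11.2 CPM (2.33 ± 0.34, edgeR adjusted p = 0.00224), in the same direction as WT1.

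Some markers of other sites of WT1 also differed at day 30. GATA4, a zinc-finger factor of the gonadal ridge, heart and mesothelium, had 86.5 ± 26.5 CPM in abnormal fetuses and 0.0507 ± 0.0879 CPM in normal clones (edgeR adjusted p = 0.000394). In the gonad and adrenal list 2 of 8 were higher and 0 lower, and 6 of 8 differences were positive. LHX9 and SOX9, named after their values were seen, were lower in abnormal fetuses but did not pass (edgeR adjusted p = 0.0559 and 0.126). LHX9 had 7.30 ± 6.61 against 38.8 ± 7.11 CPM, and SOX9 had 48.75 ± 16.3 against 85.8 ± 19.7 CPM. The summed level of the 14 genes of this list was 52.7 to 61.45 TPM in abnormal fetuses and 59.8 to 89.0 TPM in normal clones. In the mesothelial and epicardial list 1 of 6 was higher and 1 lower, and its summed level was 509 to 683 TPM in abnormal fetuses against 175 to 189 TPM in normal clones. NR5A1 had 0 counts throughout. KRT19, an epithelial keratin of that list, had 743 ± 152 against 118 ± 0.619 CPM, and TBX18, a T-box factor of epicardium and other mesenchyme, went the other way, at 30.8 ± 7.78 against 161 ± 14.7 CPM (-2.38 ± 0.52, edgeR adjusted p = 0.013). Without either day 30 abnormal library this list had 0 calls. The part of these tissues in the WT1 level was not tested. In the neural and ear list 3 of 13 were higher and 2 lower, beside 8.93% higher and 6.46% lower over all genes. GAD1 had 0.651 ± 0.3155 against 9.24 ± 1.51 CPM (-3.78 ± 0.63, edgeR adjusted p = 0.00389), while EN2, a homeobox factor of the midbrain-hindbrain boundary, had 6.49 ± 0.7095 CPM in abnormal fetuses and 0 counts in the normal clones (edgeR adjusted p = 0.00652). On leaving out each library the calls ran from 0 to 2 in the duct list, 1 to 5 in the early nephron list, 1 to 3 in the gonad and adrenal list and 3 to 7 in the neural and ear list. The summed level of that last list was 26.5 to 48.5 TPM in abnormal fetuses and 75.8 to 87.5 TPM in normal clones.

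At day 35, 4 of 11 nephron progenitor genes and 4 of 12 duct genes were lower in abnormal than in normal clones, and 1 and 0 were higher. The medians were -0.15 and -0.55 against 0.0 over all genes. SIX2, lower at day 30, had 137.5 ± 68.6 against 114.7 ± 14.3 CPM and did not pass (0.32 ± 0.29, edgeR adjusted p = 0.456). HOXA11 had 5.19 ± 0.288 against 58.4 ± 18.3 CPM (-3.52 ± 0.88, edgeR adjusted p = 0.0162), a call lost without day 35 abnormal replicate 1 (-3.45, adjusted p = 0.153). Without that library the nephron progenitor list had 3 calls and the duct list 2, and without day 35 abnormal replicate 2 the nephron progenitor list had 8. The duct list also had 2 without each day 30 normal library or without day 35 normal replicate 1 or 2. The early nephron list had 1 of 11 higher and 1 lower. In the neural and ear list 8 of 13 were lower and 3 higher, with a median of -3.33, and its summed level was 26.6 to 44.2 TPM in abnormal fetuses against 148 to 185 TPM in normal clones. GAD1 had 0.192 ± 0.271 against 36.9 ± 9.90 CPM (edgeR adjusted p = 0.000477), and TLX3 had 0.192 ± 0.271 against 34.0 ± 12.1 CPM (edgeR adjusted p = 0.00262). The 3 higher genes of the list were PAX5, OTX2 and EN2. PAX5, a paired-box relative of PAX2, had 3.07 ± 4.34 CPM in abnormal fetuses and 0 counts in normal clones (edgeR adjusted p = 0.0123). OTX2 had 9.79 ± 10.03 against 0.132 ± 0.118 CPM (edgeR adjusted p = 0.0207). EN2, outside the 4 largest changes of the list here, had 4.22 ± 5.97 against 0.274 ± 0.159 CPM (edgeR adjusted p = 0.0165). GAD1 and TLX3 were low in both day 35 abnormal libraries, as were PAX2 and LHX1. The values of PAX5, OTX2 and EN2 were uneven between these libraries, with an SD above the mean for each. Since 0 counts allow up to 8.09 CPM in the shallow replicate 2, depth and a true difference cannot be told apart for such low genes. PAX5 and EN2 had counts in only 1 of the abnormal libraries, so their values rest on it. The part of neural tissue in the levels of PAX2 and LHX1 was not tested. GATA4 was higher, at 12.9 ± 6.76 against 0.0761 ± 0.132 CPM (edgeR adjusted p = 0.00162). The gonad and adrenal list had 1 of 8 higher and 0 lower, and the mesothelial list 1 of 6 higher and 0 lower. Of all genes tested 10.9% were higher and 12.3% lower in this comparison. Without day 35 abnormal replicate 1 the neural and ear list had 6 calls and the early nephron list 5. Without day 35 abnormal replicate 2 the mesothelial list had 4, the early nephron list 4 and the gonad and adrenal list 2, and without day 35 normal replicate 1 the mesothelial list had 0 and the early nephron list 1.

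Abnormal fetuses were also set beside NF fetuses, a comparison that shares its NF libraries with those of the normal clones. At day 30 the log2 difference was 3.73 ± 0.66 for PAX2 and 3.80 ± 0.81 for WT1, and LHX1 was at least 60.02-fold higher against 3 counts over the NF group. In none of the 3 genes did the libraries overlap, a state that 34.0% of genes met in the higher direction, and 30.0% of genes passed the test in either direction. At day 35 WT1 differed by 2.34 ± 0.82, and by 4.64 without NF replicate 1. LHX1 had 14 counts in abnormal and 3 in NF fetuses, a ratio of 18.1 with a 95% counting interval of 5.06 to 98.4, and all 14 were in abnormal replicate 1. Without that replicate, and with it all LHX1 counts, the fitted LHX1 difference was -3.45. PAX2 had 0 counts against 16, and since the limits of 1.15 and 8.09 CPM in the abnormal libraries lie above NF replicate 1 at 0.513 CPM, the groups were not separated at this depth. In this comparison 23.2% of genes passed, 18% had no overlap in the higher direction, as the WT1 levels had with an interval of 2.94 to 27.6 CPM on the lower abnormal library, and 27.2% had none in the lower direction. From day 30 to day 35 within abnormal fetuses PAX2 went from 64 counts to 0, at least 13.7-fold lower, while LHX1 and WT1 each differed by -1.60, with SE of 0.51 and 0.78. EIF1AY counts differed between these groups too, with 121 and 61 at day 30 and 0 in both libraries at day 35. LHX1 and WT1 did not overlap between the days, which 22.6% of genes met in the lower direction. For PAX2 the limit of 8.09 CPM in day 35 replicate 2 lies above the 6.55 CPM of day 30 replicate 1, so overlap could not be judged. In all, 3.51% of genes passed the test in either direction. Without day 35 abnormal replicate 1 the WT1 difference was -3.0.

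**Figure D5:**
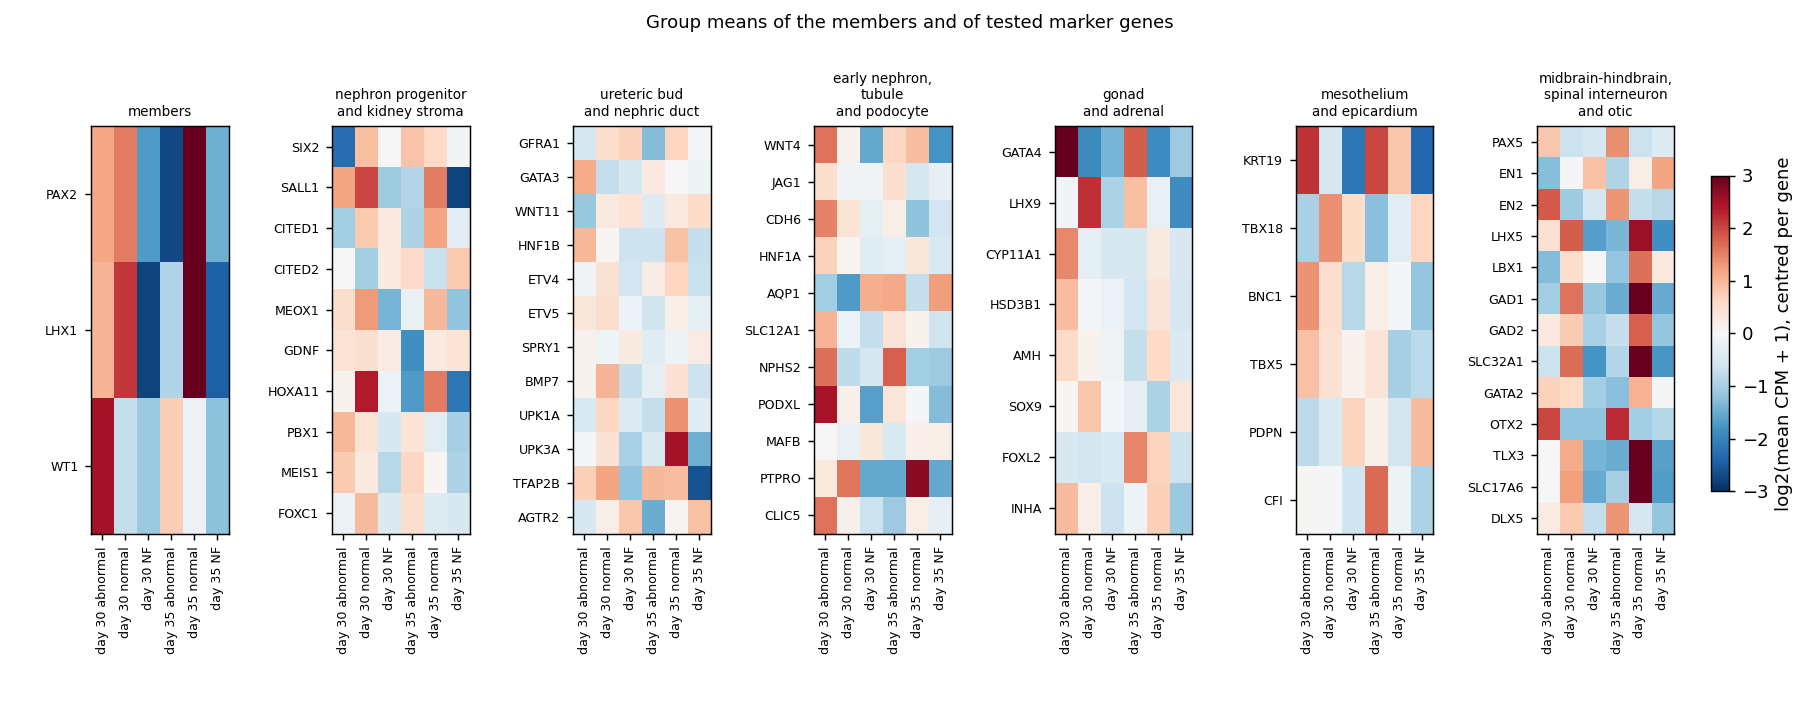
Group means as log2(mean CPM + 1), centred on each gene's mean over the 6 groups, for PAX2, LHX1 and WT1 and for tested genes of each marker list; colours end at -3 and 3. PAX2 and LHX1 share the red of day 35 normal clones with SLC32A1, TLX3 and GAD1, and WT1 shares the red of day 30 abnormal fetuses with PODXL and GATA4.

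Across the 14 libraries PAX2 and LHX1 had alike patterns and WT1 did not follow either. The Pearson correlation of log2 CPM was 0.863 between PAX2 and LHX1 (Spearman 0.877), 0.356 between LHX1 and WT1 and 0.117 between PAX2 and WT1. Without the shallow day 35 abnormal replicate 2 these were 0.837, 0.377 and 0.121. The points share libraries, depth and group membership, so the values only describe these libraries. LHX1 ranked 146th in likeness to PAX2 among 9841 genes, and PAX2 ranked 536th in likeness to LHX1, so many genes were closer to each than they were to one another.

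The 5 genes most like PAX2 were MYBPC1 (r = 0.975 over 14 libraries), ADAM11 (0.959), TXLNB (0.958), PYGM (0.953) and DUSP26 (0.948). MYBPC1, a myosin-binding protein of skeletal muscle, had means of 57.35 CPM in day 30 normal and 156 CPM in day 35 normal clones, 17.4 and 0.384 CPM in abnormal fetuses, and 1.09 and 0.952 CPM in NF fetuses. Closest to LHX1 were LRRN2 (0.986), HSD17B8 (0.986), NOVA2 (0.979), EVL (0.979) and MMP15 (0.979). NOVA2, a splicing regulator of neurons, had 44.3 and 53.1 CPM in normal clones, 37.2 and 13.8 CPM in abnormal fetuses, and 4.12 and 6.66 CPM in NF fetuses. Closest to WT1 were A2M (0.959), OGFRL1 (0.925), VAT1 (0.907), ATP5G2 (0.896) and RRM2B (0.895). A2M, a secreted protease inhibitor, had 50.3 CPM in day 30 abnormal and 19.98 CPM in day 35 abnormal fetuses and between 4.68 and 10.3 CPM in the other groups. By Spearman correlation MYBPC1 stayed first for PAX2 and A2M first for WT1. TXLNB and DUSP26 fell to ranks 47 and 69 for PAX2. For LHX1, NOVA2 fell to rank 25, LRRN2 and HSD17B8 to 120, MMP15 to 342 and EVL to 379. For WT1, OGFRL1 and RRM2B fell to rank 21, VAT1 to 32 and ATP5G2 to 115. By Pearson correlation without the shallow day 35 abnormal replicate 2, A2M stayed first for WT1. MYBPC1 then ranked 3 for PAX2 and RRM2B ranked 26 for WT1.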

How the data were processed

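Fetus RNA was extracted with Trizol and made into libraries from total RNA with a NEBNext Ultra II RNA kit, per the labels' protocols. The submitters' processing notes name RSEM 1.2.4 and Sscrofa11.1; the aligner is not given in the sources used here. Each library's deposited table gives the authors' expected count and TPM for 65927 transcript records, per the file headers. Records were matched to genes by accession without version (25305 records, 38.4%, in 14389 genes); matched records held 66.0% to 69.0% of counts. Counts were summed per gene and rounded. With versions, 4758 records matched and the 3 genes gave no value.

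A single edgeR 4.0.16 fit (R 4.3.3) took all 14 libraries, each group having its own mean: filterByExpr, TMM, quasi-likelihood F-tests, Benjamini-Hochberg adjustment at 0.05 over 9911 genes. SE is the fold change divided by the root of F. The fit was tested on simulated data. Alternatives were RLE factors, no filter, 1 CPM in 2 libraries, DESeq2 1.42.0, limma 3.58.1 on log2(TPM + 1), only the groups compared, a replicate block, versioned records and each library left out.

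Members and gene lists were chosen with earlier results of these data known. List genes named were among the 4 with the largest change per list, save where stated, and likeness used log2 CPM (prior count 2) of genes with an average of at least 0. Replicates were not duplicates (chi-square per degree of freedom 5.25 or more). Summaries were made in Python 3.11.15 (pandas 2.3.3, numpy 2.4.6) and plots in matplotlib 3.10.9. The values of 1 list gene are not reported here.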

Additional observations from a re-analysis of the deposited data

How the results depend on the processing

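Across all alternatives PAX2 and LHX1 stayed higher in normal clones than in NF fetuses at both days. With versioned records the members gave no value, and the genes called fell to 731 and 1132 in normal clones against NF at day 30 and 35, 179 between days in normal clones, 6 for the difference of the day changes, 375 and 609 in abnormal against normal clones, 736 and 567 in abnormal clones against NF, and 143 between days in abnormal clones. DESeq2 called 1588 between days in normal clones, 11 in NF, 352 for the difference and 857 in abnormal clones; limma on TPM called 1, 0 and 768 in the last 3. With only the groups compared the counts were 3635 between days in normal clones, 438 for the difference, 3807 and 339 in abnormal against normal clones, and 0 both in abnormal clones against NF at day 35 and between days in abnormal clones. That setting filtered PAX2 and LHX1 out for the days in NF and for abnormal clones against NF at day 35.

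Of 31 same-numbered pairs of libraries 4 had correlated deviations over 0.1 (range -0.179 to 0.228). In a group of 2 libraries the deviations from the mean are mirror images. Pairs between such groups thus repeat the same value, and the check cannot settle whether replicate numbers pair the samples. The replicate block gave 409 genes between days in normal clones, 733 and 1500 in abnormal against normal clones, 1507 in abnormal clones against NF at day 35 and 169 between days in abnormal clones. PAX2 between days in normal clones was 1.76 with the block (adjusted p = 0.0678, edgeR). LHX1 there passed with DESeq2 (0.95) and with only the groups compared (0.90).

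Without each library in turn, genes called ranged from 1276 to 4439 and 2147 to 5630 in normal clones against NF at day 30 and 35, 1 to 2533 between days in normal clones, 0 to 22 in NF, 0 to 484 for the difference, 413 to 3242 and 1424 to 3608 in abnormal against normal clones, 1112 to 4651 and 356 to 4717 in abnormal clones against NF, and 87 to 2704 between days in abnormal clones. The log2 values of normal clones against NF ranged from -0.02 to 1.18 for WT1 at day 30 and 0.34 to 3.50 at day 35. Between days in normal clones they ranged from 1.60 to 1.93 for PAX2 and 0.85 to 1.06 for LHX1. Between days in NF the range was -0.94 to 1.15 for PAX2 and -2.46 to 0.70 for WT1, with WT1 at 0.58 without day 30 NF replicate 2. For the difference of the day changes WT1 ranged from -0.12 to 3.04, and limma on TPM turned LHX1 to 0.62.

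In abnormal against normal clones at day 30 the range was -1.45 to 0.23 for PAX2, -1.49 to -0.88 for LHX1 and 2.95 to 3.66 for WT1 (2.68 with limma). At day 35 it was -11.20 to -10.94 for PAX2 (-8.31 DESeq2, -4.77 limma, -10.77 only the groups compared), -11.00 to -3.31 for LHX1 and -0.19 to 1.63 for WT1. Against NF at day 30 it was 2.67 to 4.35 for PAX2 (1.93 limma), 8.65 to 9.26 for LHX1 (2.41 limma) and 3.32 to 4.51 for WT1. Against NF at day 35 it was -6.38 to -4.29 for PAX2 (-2.81 DESeq2, -0.62 limma), -3.45 to 4.4 for LHX1 (0.55 limma) and 0.95 to 4.64 for WT1. Between days in abnormal clones it was -9.68 to -8.00 for PAX2 (-6.24 DESeq2, -2.44 limma, -7.72 only the groups compared), -8.97 to -1.28 for LHX1 and -3.0 to -1.19 for WT1. Fitted values with a group at 0 counts depend on the prior count and are no bounds; the cause of the other shifts was not tested. GAD1 was not called with versioned records in abnormal against normal clones at day 30 (-3.28, adjusted p = 0.216, edgeR). The shallow day 35 abnormal replicate 2 limits low genes most: its limit of 3 counts was 8.09 CPM.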
